A study of Mus musculus with 25 samples.

Results

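The experiment compared the liver transcriptome of mice fed a Western diet and labelled as liver-specific SIRT1 knockouts (LKO) with that of wild-type (WT) mice fed chow. Its members were the libraries titled as Western diet-fed SIRT1 LKO with AAV8-EV and as chow-fed WT with AAV8-EV, which made 8 of the 25 libraries of the series. Of these, 5 were LKO libraries and 3 were chow libraries, all from liver of strain C57B/6J at 20 weeks of age. Nothing in the sources used here says that a mouse gave more than 1 library. The limma p-values below rest on the spread within the groups of all 25 libraries, which shared 1 fit, and not on these 8 alone. The exact permutation tests below used these 8 libraries only. The LKO mice had received the Western diet (TD88137) for 12 weeks. The knockout combined LoxP-flanked Sirt1 alleles with Cre recombinase driven by the Albumin promoter, which is active in hepatocytes, and the wild types were littermates with the same LoxP-flanked alleles and no Cre. All 8 mice were male and all had been injected with the same empty AAV8 vector (EV), so the virus was shared by both groups and does not separate them. Diet and genotype changed together, and their parts in a difference between these groups cannot be told apart within it. Another group, WT mice on the Western diet for 12 weeks with the same empty vector (n = 6), is set beside the comparison where needed.

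A Western diet supplies saturated fat, sucrose and cholesterol. Dietary cholesterol lowers the activity of the transcription factor SREBP2, which drives the genes of cholesterol synthesis, while oxysterols activate LXR, which drives sterol export and the lipogenic factor SREBP1c. Sugar adds to this through ChREBP, and the resulting fatty acids are stored as triglyceride in lipid droplets or oxidised under the control of PPARA. SIRT1 is an NAD-dependent deacetylase that acts on several of these regulators in the hepatocyte, and NAMPT makes the nicotinamide mononucleotide from which its cosubstrate NAD is formed.

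Total counts of the 8 libraries ran from 20987960 to 32937326 reads assigned to genes. Levels are given as CPM, read counts scaled to library size with the TMM method, and fold changes are log2 values from the limma fit with their standard errors (SE). A gene was called at an adjusted p-value of 0.05 or less. Chow replicate 3 stood apart from the other chow libraries, with a quality weight in the fit of 0.608 against 1.805 and 2.504. It also held the lowest or highest chow value for many genes below, and for each gene named below, calls that were lost without 1 library are given with that library. Calls lost with the quasi-likelihood test of edgeR or another alternative are named too, and the range of the log2 fold change over the alternatives is given where the fold moved by over 1.5 times, as it did in 29 of 144 called genes. Of 85 named genes called higher, 15 had no chow library over 1 CPM and passed the filter on low counts through Western diet libraries alone. These were Aurkb, Bub1, Ciart, Cxcl2, Eda2r, Ephb2, Fgf21, Hao2, Mmp7, Mogat1, Nkg7, Pnpla5, Slc22a27, Slc2a4 and Sult1e1. Their p-values are printed below and give no support beyond the read counts. Nothing in the sources used here gives a batch or an hour of tissue collection for these mice.

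Sirt1, the gene targeted in the knockout (GRCm38 chromosome 10, 63319005 to 63381704, minus strand), did not pass the test between chow and the libraries labelled LKO. Its level was 10.7, 10.02 and 9.70 CPM in chow replicates 1 to 3 and 7.16, 7.22, 8.81, 10.1 and 9.61 CPM in LKO replicates 1 to 5, so the groups overlapped at LKO replicate 4. The difference of -0.24 in mean log2(CPM + 0.5) gave p = 0.107 in an exact two-sided permutation test (adjusted p = 0.107 over 3 genes), and the limma fold change was -0.27 ± 0.11 (adjusted p = 0.06). The limma call was gained in 4 of 19 alternatives, which were scaling by library size only (adjusted p = 0.046), the replicate block (0.026) and the fits without LKO replicate 4 (0.030) or 5 (0.040). The counts sum reads over all exons and do not resolve the deletion of a part of the gene, so each direction given below rests on the labels. Nampt, the rate-limiting enzyme of NAD salvage, stood at 45.3, 35.5 and 41.4 CPM in chow and 46.0, 46.7, 56.5, 75.6 and 55.7 CPM in LKO libraries. The LKO values lay just above the chow values without overlap, at a log2 fold change of 0.46 ± 0.16 (adjusted p = 0.04). Nampt missed the threshold without chow replicate 1, 2 or 3 or LKO replicate 3, 4 or 5 (adjusted p from 0.061 to 0.43). Nampt missed it with the quasi-likelihood test (adjusted p = 0.17). Nampt was not called without sample quality weights, with no filter on low counts, with the exact test of edgeR, with DESeq2 or with the replicate block. Fgf21, a fasting- and diet-induced liver hormone, was listed at 0.331, 0.356 and 0.158 CPM in chow libraries and at 11.03, 7.87, 7.41, 6.42 and 3.502 CPM in LKO libraries. Every LKO library exceeded every chow library, at 20.6-fold (4.36 ± 1.33, adjusted p = 0.017). Fgf21 missed the threshold without chow replicate 1 or 2 (adjusted p from 0.2 to 0.24). Fgf21 was not called without sample quality weights or with no filter on low counts. For Nampt and Fgf21 the exact test gave p = 0.0357, the smallest two-sided value that 5 against 3 libraries allow, and an adjusted p = 0.0536 over the 3 genes.

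Across 14065 genes, 3917 were called between the LKO and chow libraries (27.8% of all tested), of which 1827 were higher (13%) and 2090 lower (14.9%). Chow and LKO values were fully separated for 1582 genes that were higher (11.2%) and 1654 that were lower (11.8%). A change of more than 2-fold was called for 860 genes (6.11%), of which 478 rose (3.4%) and 382 fell (2.72%). The count rested on the chow libraries: without chow replicate 1 it was 1217, without chow replicate 2 it was 1074, and without chow replicate 3 it was 3890. With the quasi-likelihood test of edgeR, 1529 genes were called (10.9%), 733 of them higher (5.21%) and 796 lower (5.66%), and limma without sample quality weights called 1399.

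**Figure D1:**
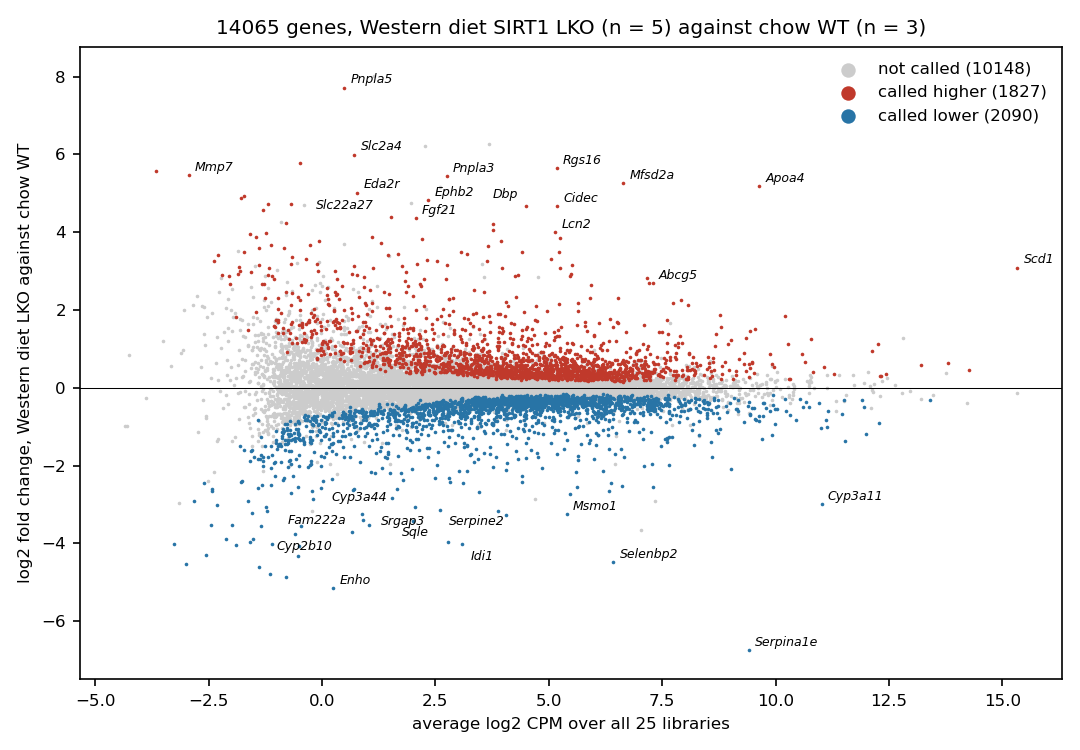
Each point is 1 of 14065 genes, with its average log2 CPM on the horizontal axis and the log2 fold change of Western diet LKO (n = 5) against chow WT (n = 3) on the vertical axis. Red points were called higher (1827), blue points lower (2090) and grey points were not called. Names mark the genes with the largest changes and a few others described in the text, with Serpina1e lowest at -6.75. The fitted value of Pnpla5, at the top, depends on the prior count, since no chow library had a read of it.

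The cholesterol synthesis genes fell nearly as a block. Of 25 genes of sterol synthesis and uptake, all kept after the filter, 23 were called lower and 0 higher, against 14.9% and 13% of all genes. Their median log2 fold change was -1.75, beside 0.00089 over all genes tested. Every LKO library lay below every chow library for 22 of the 25, against 11.8% of all genes. The number of falls was 21 without chow replicate 1, 21 without chow replicate 2 and 22 with the quasi-likelihood test.

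Idi1, which isomerises isopentenyl diphosphate (GRCm38 chromosome 13, 8885501 to 8892451, plus strand), was at 118, 109 and 52.9 CPM in chow libraries and at 4.43, 8.32, 7.68, 4.83 and 5.90 CPM in LKO libraries. It was 16.1-fold lower (-4.01 ± 0.21, adjusted p = 2.2e-12). Sqle, the squalene epoxidase and a rate-limiting step, fell from 139.5, 136 and 59.0 CPM to 5.39, 11.1, 9.46, 4.99 and 7.94 CPM (-3.97 ± 0.29, adjusted p = 6.9e-10). In both genes chow replicate 3 held less than the other chow libraries and still several times any LKO library. Msmo1, a sterol C4 oxidase, was at 386, 344 and 135 CPM in chow and 21.97, 41.9, 35.2, 34.9 and 35.1 CPM in LKO libraries (-3.24 ± 0.26, adjusted p = 3.2e-09). Hmgcs1, the cytosolic HMG-CoA synthase at the head of the pathway, fell from 981, 886 and 445 CPM to 111, 199.6, 161, 89.7 and 147 CPM (-2.55 ± 0.26, adjusted p = 2.6e-07). No LKO library reached a chow library in either gene. Cyp51, the lanosterol demethylase, fell 6.57-fold (-2.72 ± 0.20, adjusted p = 9.9e-10). 

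Since these genes moved together, the 250 bases before their start sites were read from RefSeq (GRCm38.p6), taking the start site listed first for a gene. An entry was found for 17 of the 25 genes. The letters CCAAT, the core of the site bound by NF-Y, were searched on both strands. They were present in 15 of the 17, all but Acat2 and Dhcr7, against 36.6% of the 10360 kept genes with an entry. The longer string TCACNCCAC, which resembles a sterol regulatory element, was found on either strand in 1 of the 17, in Hmgcs1, against 1.0% of those genes. For comparison, CCAAT was present in 11 of 16 clock genes, 8 of 15 de novo lipogenesis genes and 7 of 20 lipid droplet genes with an entry. A match is a description of the letters and does not show binding. The promoters of Hmgcs1, Mvd, Ebp and Sc5d are shown because their windows touch no exon in the annotation the counts used. They run 5′ to 3′ on the strand of the gene, with CCAAT or its complement ATTGG in capitals and, in Hmgcs1, also TCACCCCAC.
Hmgcs1, chr13:119690101-119690350, plus strand: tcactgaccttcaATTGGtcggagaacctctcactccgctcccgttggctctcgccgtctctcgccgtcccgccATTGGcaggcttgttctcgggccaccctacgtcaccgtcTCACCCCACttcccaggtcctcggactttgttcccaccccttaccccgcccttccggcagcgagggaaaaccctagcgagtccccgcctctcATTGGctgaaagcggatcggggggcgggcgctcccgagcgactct
Mvd, chr8:122443423-122443672, minus strand: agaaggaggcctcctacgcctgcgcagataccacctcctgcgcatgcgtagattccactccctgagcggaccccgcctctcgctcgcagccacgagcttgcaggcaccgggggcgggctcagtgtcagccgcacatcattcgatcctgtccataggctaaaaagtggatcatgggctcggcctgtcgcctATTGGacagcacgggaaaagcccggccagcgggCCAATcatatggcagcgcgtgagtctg
Ebp, chrX:8193513-8193762, minus strand: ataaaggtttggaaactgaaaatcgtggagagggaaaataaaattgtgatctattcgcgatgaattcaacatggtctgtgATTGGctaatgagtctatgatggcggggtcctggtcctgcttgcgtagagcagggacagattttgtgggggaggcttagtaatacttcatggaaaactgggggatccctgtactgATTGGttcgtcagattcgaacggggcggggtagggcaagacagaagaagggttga
Sc5d, chr9:42264301-42264550, minus strand: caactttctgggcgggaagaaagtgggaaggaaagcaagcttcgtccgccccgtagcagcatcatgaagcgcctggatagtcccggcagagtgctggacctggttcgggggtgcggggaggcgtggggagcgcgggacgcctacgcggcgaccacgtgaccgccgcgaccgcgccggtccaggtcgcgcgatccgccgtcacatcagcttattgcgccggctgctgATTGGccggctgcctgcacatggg
All 4 genes with a printed promoter were called lower. Mvd, the mevalonate diphosphate decarboxylase, fell 5.34-fold (-2.42 ± 0.33, adjusted p = 1.3e-05). Sc5d, the lathosterol desaturase, fell 2.08-fold (-1.06 ± 0.17, adjusted p = 1.2e-04) and Ebp, the sterol isomerase, 1.43-fold (-0.51 ± 0.12, adjusted p = 0.0031). Mvd ranged from -2.70 to -1.56 on the log2 scale over the alternatives. The printed sequences span a range of falls, from Ebp to Hmgcs1. Each holds the CCAAT letters at least once, as did most sterol genes with an entry.

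The genes of fat synthesis moved the other way. Of 18 de novo lipogenesis genes, 12 were called higher and 1 lower, beside 13% and 14.9% of all genes, with a median log2 fold change of 1.21. Without chow replicate 1 the counts were 10 and 0, and without chow replicate 2 they were 8 and 0. Scd1, the desaturase that makes oleate (GRCm38 chromosome 19, 44394451 to 44407709, minus strand), was at 7334, 5881 and 14388 CPM in chow libraries and at 61068, 71474, 66166, 51357 and 48977 CPM in LKO libraries (8.52-fold, 3.09 ± 0.22, adjusted p = 4.1e-10). Its lowest LKO library stood more than 3-fold above its highest chow library, which was chow replicate 3. Pklr, the liver pyruvate kinase and a ChREBP target, rose from 124, 96.2 and 60.7 CPM to 422, 499, 354, 357 and 558 CPM (2.12 ± 0.24, adjusted p = 8.7e-07). The exons of Pklr overlap those of Hcn3 on the opposite strand over 22% of their length, and whether counting used the strand is not given in the sources used here. Hcn3 itself stood at 3.26 on the same scale, and reads of the pair cannot be told apart without strand. The same limit holds for Apoa4 (34.8% shared with Gm10680), Dbp (16.7% with Sphk2), Mogat1 (12.8% with BC035947), Acot3 (12.0% with 4732463B04Rik), Hsp90b1 (10.3% with 1810014B01Rik) and Rgs16 (10.1% with Gm28513), all described below, while Afmid (44.2% with Gm20708) and Clec7a (31.8% with an unnamed gene) share exons on the same strand, where such reads were not counted. Srebf1, which encodes SREBP1, rose 2.76-fold (1.46 ± 0.19, adjusted p = 6.1e-06), Elovl6, the fatty acid elongase, 3.33-fold (1.73 ± 0.27, adjusted p = 7.0e-05), and Acaca, the acetyl-CoA carboxylase, 2.23-fold (1.16 ± 0.20, adjusted p = 2.0e-04). Fasn, the fatty acid synthase, rose 2.40-fold (1.27 ± 0.34, adjusted p = 0.0078). Acss2, which makes acetyl-CoA from acetate for both cholesterol and fatty acids, was the member that fell (-1.10 ± 0.27, adjusted p = 0.0043). Scd2 rose with Scd1 (1.98 ± 0.24, adjusted p = 2.1e-06). Acss2 missed the threshold without chow replicate 1 (adjusted p = 0.095). Fasn and Acss2 missed the threshold without chow replicate 2 (adjusted p from 0.053 to 0.087). Fasn missed it with the quasi-likelihood test (adjusted p = 0.069). Fasn was not called without sample quality weights or with no filter on low counts.

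Genes that store or handle triglyceride held several of the largest rises. Of 24 lipid droplet and triglyceride genes, 18 were called higher and 0 lower, beside 13% and 14.9% of all genes, with a median of 1.15. Without chow replicate 1 the count of rises was 10, and without chow replicate 2 it was 8. Pnpla5, a lipase of the adiponutrin family (GRCm38 chromosome 15, 84112621 to 84123175, minus strand), had no read in any chow library and between 40 and 201 reads in the LKO libraries. Measured against a floor of 3 counts per chow library, it was at least 42.2-fold higher, and its adjusted p was 0.0066. Pnpla3, its close relative and the gene of the best-known human fatty liver variant, rose from 1.03, 0.134 and 0.986 CPM to 19.8, 50.3, 13.3, 5.61 and 19.1 CPM (5.45 ± 1.51, adjusted p = 0.0097). Cidec, which fuses lipid droplets, was at 2.61, 1.60 and 2.13 CPM in chow and 96.2, 40.6, 89.8, 25.1 and 35.8 CPM in LKO libraries (25.5-fold, 4.67 ± 1.13, adjusted p = 0.0038). All of these were low or absent in every chow library. Mogat1, a monoacylglycerol acyltransferase, rose from 0.197 to 0.331 CPM in chow to 2.16 to 6.85 CPM in LKO libraries (3.87 ± 1.03, adjusted p = 0.0074), and the fatty acid translocase Cd36 rose 7.03-fold (2.81 ± 0.29, adjusted p = 2.9e-07). Plin2, the main droplet coat protein of the hepatocyte, rose 1.69-fold (0.75 ± 0.17, adjusted p = 0.0024). Pnpla5, Pnpla3, Cidec and Mogat1 missed the threshold without chow replicate 1 (adjusted p from 0.095 to 0.16). Pnpla5, Pnpla3, Cidec, Mogat1 and Plin2 missed the threshold without chow replicate 2 (adjusted p from 0.086 to 0.16). Pnpla5, Pnpla3 and Mogat1 were not called without sample quality weights. Pnpla5 ranged from 7.43 to 10.09 and Pnpla3 from 4.12 to 5.75 on the log2 scale over the alternatives.

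The other large rises came from genes of varied roles. Apoa4, an apolipoprotein secreted with triglyceride-rich particles (GRCm38 chromosome 9, 46240696 to 46243459, plus strand), was at 41.2, 31.7 and 49.3 CPM in chow libraries and at 2485, 1363, 1619, 749 and 995 CPM in LKO libraries (36.4-fold, 5.18 ± 0.31, adjusted p = 2.5e-11). Mfsd2a, a transporter of lysophosphatidylcholine, was at 3.51, 4.63 and 13.1 CPM and 181, 185, 186, 187 and 189.5 CPM (38.6-fold, 5.27 ± 0.33, adjusted p = 4.8e-11). The LKO libraries agreed closely in Mfsd2a and spread over more than 3-fold in Apoa4. Rgs16, a regulator of G-protein signalling (GRCm38 chromosome 1, 153740349 to 153745468, plus strand), rose from 2.98, 2.003 and 1.70 CPM to 41.1, 108, 147, 141 and 188 CPM (49.8-fold, 5.64 ± 0.88, adjusted p = 6.3e-05). Slc2a4, the insulin-regulated glucose transporter GLUT4 of muscle and fat, was at 0.248, 0 and 0.0789 CPM in chow and 2.70, 6.12, 2.64, 6.65 and 7.21 CPM in LKO libraries (5.997 ± 1.39, adjusted p = 0.0027). The chow values of Slc2a4 rested on 0 to 6 reads a library, so the size of its fold is imprecise. Eda2r, a receptor of the TNF receptor family, was at 1.14 to 4.18 CPM in LKO and 0 to 0.413 CPM in chow libraries (5.02 ± 1.20, adjusted p = 0.0034). Ephb2, an ephrin receptor, was at 2.63 to 28.01 CPM against 0.237 to 0.579 CPM (4.83 ± 1.76, adjusted p = 0.043), and Slc22a27, an organic anion transporter, at 4.97 to 9.25 CPM against 0.207 to 0.490 CPM (4.39 ± 1.24, adjusted p = 0.011). Ephb2 differed about 10-fold among the LKO libraries, with LKO replicates 4 and 5 the lowest. Slc2a4, Eda2r, Ephb2 and Slc22a27 missed the threshold without chow replicate 1 or 2 (adjusted p from 0.077 to 0.33). Ephb2 missed the threshold without chow replicate 3 or LKO replicate 1, 2 or 3 (adjusted p from 0.054 to 0.064). Ephb2 and Slc22a27 were not called without sample quality weights. Ephb2 lost the call with no filter on low counts. Mfsd2a ranged from 4.53 to 5.53, Slc2a4 from 4.76 to 6.53 and Eda2r from 3.52 to 5.58 on the log2 scale over the alternatives.

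**Figure D2:**
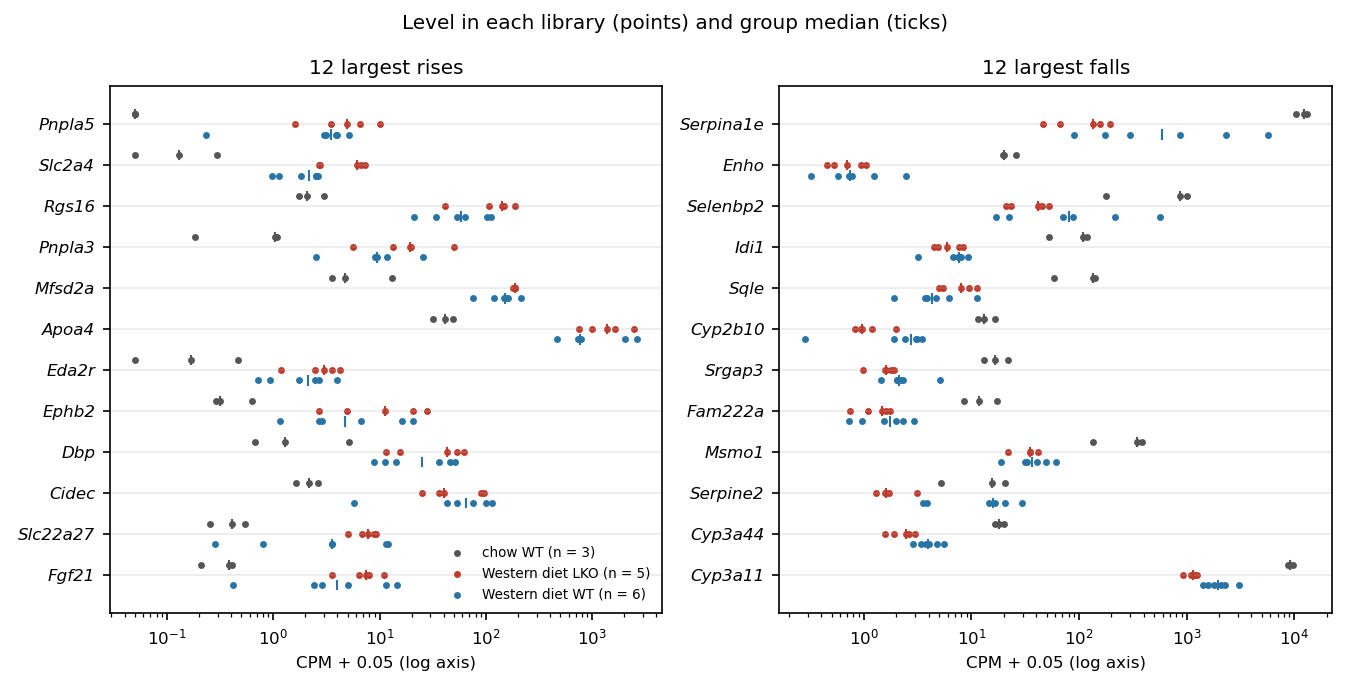
Levels of the 12 genes with the largest called rises (left) and the 12 with the largest called falls (right), chosen by the naming rule. Each point is 1 library on a log axis of CPM + 0.05, ticks are group medians, and colours mark chow WT (n = 3), Western diet LKO (n = 5) and Western diet WT (n = 6). The chow and LKO points do not overlap in any of the 24 genes, which the rule required.

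Several of the largest falls outside sterol synthesis belonged to no list or to the hepatokines. Enho, which encodes the peptide adropin (GRCm38 chromosome 4, 41638144 to 41640324, minus strand), fell from 25.7, 20.1 and 19.8 CPM to 0.885, 0.401, 0.475, 1.01 and 0.652 CPM (35.4-fold lower, -5.15 ± 0.32, adjusted p = 4.3e-11). Chow and LKO libraries were separated by a wide gap, and the call held without each library in turn. Srgap3, a GTPase-activating protein, was at 21.8, 16.3 and 12.9 CPM in chow and 1.73, 1.504, 1.84, 0.928 and 1.55 CPM in LKO libraries (-3.52 ± 0.26, adjusted p = 8.6e-10). Fam222a, a gene of little known function, was at 17.4, 11.7 and 8.40 CPM and 1.41, 1.55, 1.04, 0.696 and 1.71 CPM (-3.40 ± 0.29, adjusted p = 1.2e-08). Both kept chow and LKO libraries several-fold apart. Serpine2, a secreted protease inhibitor, fell from 20.6, 15.5 and 5.13 CPM to 1.25, 1.65, 1.54, 3.09 and 1.51 CPM (-3.14 ± 0.67, adjusted p = 0.0014). Serpine2 missed the threshold without chow replicate 1 or 2 (adjusted p from 0.054 to 0.068). Serpine2 ranged from -3.41 to -2.35 on the log2 scale over the alternatives. In the WT mice on Western diet, Serpine2 stood at 3.46 to 29.4 CPM (median 15.6), and the difference between the Western diet groups had an adjusted p of 0.22.

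Genes of sterol export rose in part. Of 15 LXR target and sterol efflux genes, 14 were kept, 10 were called higher and 0 lower, beside 13% and 14.9% of all genes (median 0.48). Without chow replicates 1 and 2 in turn the counts of rises were 5 and 4. Abcg5, which with its partner Abcg8 pumps sterols into bile, was at 23.2, 29.4 and 70.7 CPM in chow and 152, 234, 144, 229 and 237 CPM in LKO libraries (6.47-fold, 2.69 ± 0.23, adjusted p = 1.1e-08). Abcg8, its divergent neighbour on the opposite strand, was at 40.2, 58.6 and 128 CPM and 199, 295, 179, 334 and 329.6 CPM (4.56-fold, 2.19 ± 0.25, adjusted p = 1.0e-06). Chow replicate 3 held the highest chow value of each and stayed below every LKO library. Abcg1, another sterol transporter, rose 2.09-fold (1.07 ± 0.23, adjusted p = 0.0012), whereas Abca1, which loads cholesterol onto apolipoprotein A-I and is a textbook LXR target, was at 318 to 375 CPM in chow and 371 to 398 CPM in LKO libraries (0.11 ± 0.09, adjusted p = 0.37). Of 25 bile acid genes, 2 were called higher and 7 lower, beside 13% and 14.9% of all genes (median -0.40). The counts of falls were 2 without chow replicate 1 and 1 without chow replicate 2, and 11 with scaling to library size alone. Cyp7b1, the oxysterol hydroxylase of the alternative pathway, fell 5.49-fold (-2.46 ± 0.52, adjusted p = 0.0012), Cyp8b1, the enzyme of cholate formation, 2.10-fold (-1.07 ± 0.32, adjusted p = 0.014), and the uptake transporter Slco1a4 2.10-fold (-1.07 ± 0.25, adjusted p = 0.0033). Cyp7a1, the rate-limiting enzyme of bile acid synthesis, ranged over 348, 195 and 59.0 CPM in chow and 60.8, 91.7, 158, 55.4 and 78.4 CPM in LKO libraries, and its difference did not pass the test (-1.25 ± 0.50, adjusted p = 0.062). The phospholipid exporter Abcb4 rose 1.36-fold (0.44 ± 0.10, adjusted p = 0.0015), and Nr0b2, the repressor SHP, rose 1.58-fold (0.66 ± 0.23, adjusted p = 0.035). Abcg1, Cyp7b1, Cyp8b1 and Nr0b2 missed the threshold without chow replicate 1 (adjusted p from 0.069 to 0.63). Abcg1, Cyp7b1, Cyp8b1, Slco1a4 and Nr0b2 missed the threshold without chow replicate 2 (adjusted p from 0.073 to 0.78). Nr0b2 missed the threshold without LKO replicate 2 or 3 (adjusted p from 0.056 to 0.13). Cyp8b1 and Nr0b2 missed it with the quasi-likelihood test (adjusted p from 0.15 to 0.54). Abcg1, Cyp7b1, Cyp8b1 and Nr0b2 were not called without sample quality weights. Nr0b2 lost the call with no filter on low counts or with the replicate block. Cyp8b1 and Nr0b2 lost the call with the exact test of edgeR or with DESeq2. Abcg5 ranged from 2.08 to 2.90 and Abcg8 from 1.56 to 2.41 on the log2 scale over the alternatives.

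Fatty acid oxidation and PPARA targets rose in part. Of 28 members, 11 were called higher and 3 lower, beside 13% and 14.9% of all genes (median 0.43). The counts were 8 and 1 without chow replicate 1, and 7 and 0 without chow replicate 2. Vnn1, a pantetheinase, rose from 8.85, 10.02 and 7.57 CPM to 64.2, 69.8, 88.7, 59.5 and 52.0 CPM (7.30-fold, 2.87 ± 0.48, adjusted p = 1.4e-04). Acot3, a peroxisomal acyl-CoA thioesterase, was at 1.57, 0.712 and 3.87 CPM in chow and 4.99, 5.31, 9.82, 39.1 and 30.1 CPM in LKO libraries (3.26 ± 1.13, adjusted p = 0.033), with LKO replicates 4 and 5 well above the rest. Cyp4a10, a fatty acid omega-hydroxylase, rose 2.51-fold (1.33 ± 0.34, adjusted p = 0.006). Pdk4, the kinase that blocks pyruvate dehydrogenase, fell 2.88-fold (-1.53 ± 0.35, adjusted p = 0.0024), and the related hydroxylases Cyp4a12a (-1.28 ± 0.34, adjusted p = 0.0073) and Cyp4a32 (-0.65 ± 0.21, adjusted p = 0.023) also fell. Cyp4a genes are near-identical copies, and reads that match several were not counted, so their values are uncertain. Acot3, Cyp4a10, Pdk4 and Cyp4a12a missed the threshold without chow replicate 1 (adjusted p from 0.15 to 0.43). Acot3, Cyp4a10, Pdk4, Cyp4a12a and Cyp4a32 missed the threshold without chow replicate 2 (adjusted p from 0.063 to 0.34). Cyp4a32 missed the threshold without chow replicate 3 or LKO replicate 1 (adjusted p from 0.056 to 0.082). Cyp4a10, Cyp4a12a and Cyp4a32 missed it with the quasi-likelihood test (adjusted p from 0.084 to 0.21). Acot3, Cyp4a10, Cyp4a12a and Cyp4a32 were not called without sample quality weights. Acot3, Cyp4a12a and Cyp4a32 lost the call with no filter on low counts. Cyp4a10, Cyp4a12a and Cyp4a32 lost the call with the exact test of edgeR or with DESeq2. Acot3 lost the call with the replicate block. Cyp4a32 lost the call with only the groups compared. Acot3 ranged from 2.23 to 3.60 and Cyp4a10 from 0.63 to 1.57 on the log2 scale over the alternatives.

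**Figure D3:**
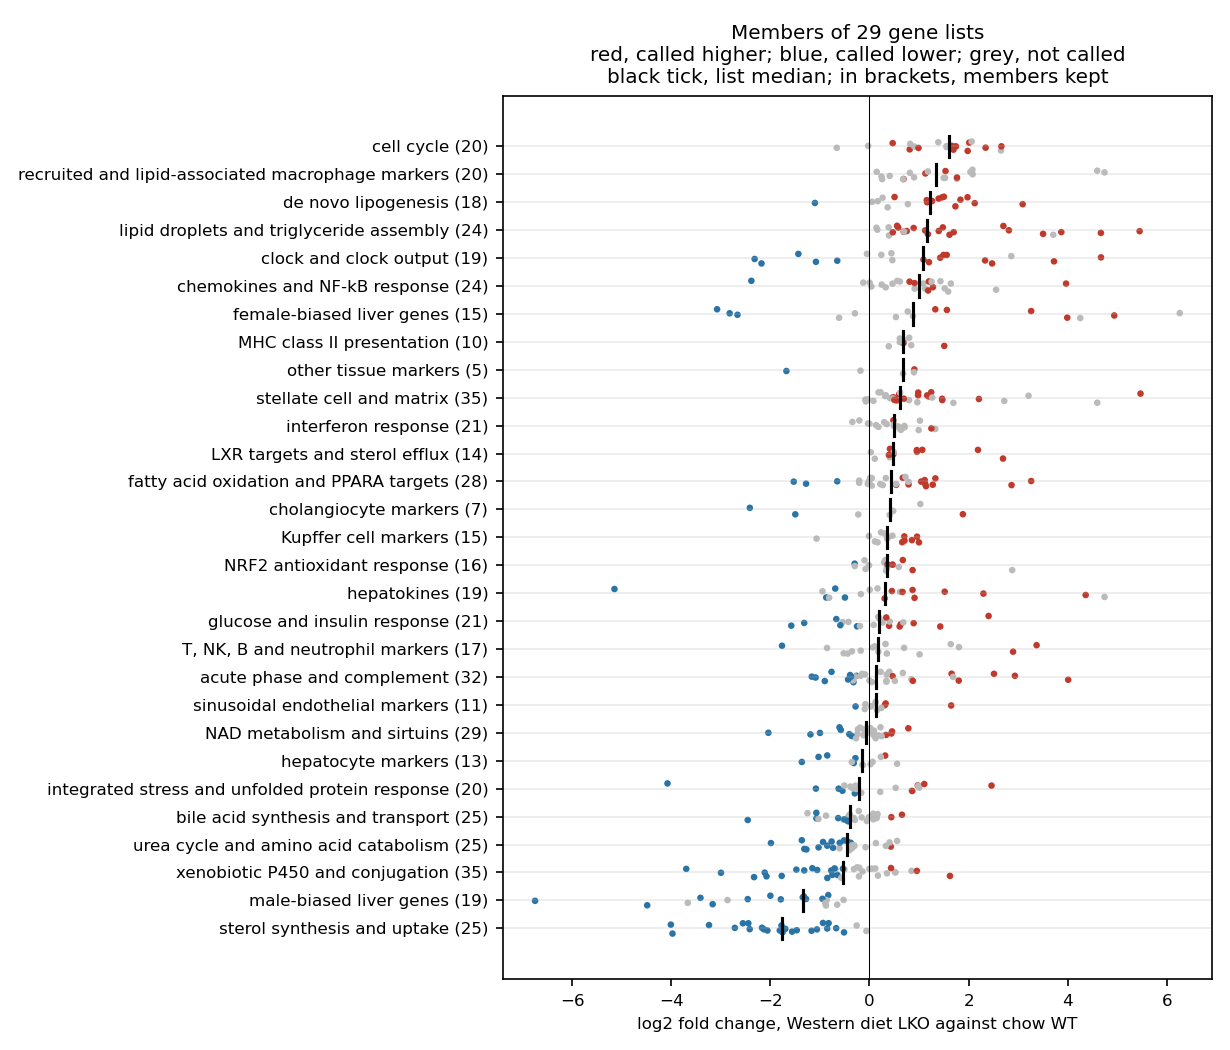
Log2 fold changes of Western diet LKO (n = 5) against chow WT (n = 3) for the kept members of 29 gene lists. Each point is 1 gene (red called higher, blue called lower, grey not called), the black tick is the list median and the number in brackets is the count of members kept. The sterol synthesis list lies furthest to the left, with a median of -1.75, and the cell cycle list furthest to the right, with a median of 1.61.

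Genes of the glucose and insulin response split, with 7 of 21 called higher and 5 lower, beside 13% and 14.9% of all genes (median 0.20). The counts were 3 and 2 without chow replicate 1, and 3 and 2 without chow replicate 2. Pcx, the pyruvate carboxylase, rose 1.86-fold (0.89 ± 0.14, adjusted p = 5.7e-05) with a narrow spread, and Ppp1r3g, a glycogen-targeting subunit of protein phosphatase, rose from a low level (2.40 ± 0.78, adjusted p = 0.025). Its relative Ppp1r3c fell 2.98-fold (-1.58 ± 0.35, adjusted p = 0.0017). Igfbp2, an insulin-repressed binding protein of insulin-like growth factors, fell 2.49-fold (-1.32 ± 0.25, adjusted p = 4.7e-04), and Irs2, the insulin receptor substrate, fell 1.59-fold (-0.67 ± 0.19, adjusted p = 0.01). Irs2 ran from 25.6 to 43.9 CPM in chow and from 9.42 to 27.7 CPM in LKO libraries, which overlapped, and was not called with only the groups compared in the fit (adjusted p = 0.051). Ppp1r3g and Ppp1r3c missed the threshold without chow replicate 1 or 2 (adjusted p from 0.063 to 0.4). Ppp1r3g missed it with the quasi-likelihood test (adjusted p = 0.31). Ppp1r3g was not called without sample quality weights, with no filter on low counts, with the exact test of edgeR, with DESeq2 or with the replicate block. Ppp1r3g ranged from 1.42 to 2.73 on the log2 scale over the alternatives.

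Among genes of NAD metabolism and the sirtuins, 29 of 31 were kept, 4 were called higher and 7 lower (median -0.08), beside 13% and 14.9% of all genes. Without chow replicates 1 and 2 in turn, the rises numbered 1 and 1 and the falls 4 and 4. Acmsd, which diverts tryptophan away from NAD synthesis, fell from 34.0, 25.7 and 75.9 CPM to 8.89, 8.82, 6.76, 9.78 and 6.84 CPM (-2.04 ± 0.31, adjusted p = 4.8e-05). Afmid, a formamidase of the same route, fell 2.28-fold (-1.19 ± 0.23, adjusted p = 5.0e-04), and Nnmt, which methylates nicotinamide, fell 1.998-fold (-0.998 ± 0.28, adjusted p = 0.011). Besides Nampt, described above, Nadk, the kinase that makes NADP, rose 1.36-fold (0.44 ± 0.08, adjusted p = 3.4e-04) and Nnt, the mitochondrial transhydrogenase, 1.72-fold (0.78 ± 0.20, adjusted p = 0.0046). Nnt missed the threshold without chow replicate 1 or 2 (adjusted p from 0.35 to 0.38). Nnt missed it with the quasi-likelihood test (adjusted p = 0.19). Nnt was not called without sample quality weights, with no filter on low counts, with the exact test of edgeR or with DESeq2. Acmsd ranged from -2.68 to -1.90 on the log2 scale over the alternatives.

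Liver-secreted hormones and stress genes were called in both directions. Of 19 hepatokine genes, 8 were called higher and 4 lower, beside 13% and 14.9% of all genes (median 0.31), and the counts were 4 and 3 without chow replicate 1 and 5 and 2 without chow replicate 2. Besides Fgf21 and Enho, Inhbe, the activin E subunit, rose from 27.8, 22.5 and 11.9 CPM to 127, 83.0, 137, 97.0 and 126 CPM (4.92-fold, 2.30 ± 0.22, adjusted p = 9.7e-08). Gdf15, a stress-induced cytokine, rose 2.86-fold (1.52 ± 0.56, adjusted p = 0.046), with chow replicate 3 above LKO replicate 5. Fetub, a secreted protease inhibitor, fell 1.83-fold (-0.87 ± 0.16, adjusted p = 3.1e-04) and Igfals, the carrier of insulin-like growth factors, 1.61-fold (-0.69 ± 0.25, adjusted p = 0.041). Of 20 kept genes of the integrated stress and unfolded protein responses, 4 rose and 5 fell, beside 13% and 14.9% of all genes, or 2 and 1 without chow replicate 1 and 2 and 1 without chow replicate 2 and 5 and 9 with only the groups compared in the fit. Targets of the stress factor ATF4 were in both directions. Asns, the asparagine synthetase, fell from 3.35, 3.69 and 12.03 CPM to 0.0805, 0.401, 0.415, 0.0773 and 0.244 CPM (-4.08 ± 0.77, adjusted p = 4.2e-04), with chow replicate 3 the highest library. In the opposite direction, the glutathione-degrading enzyme Chac1 rose 5.51-fold (2.46 ± 0.66, adjusted p = 0.0075) and Sesn2, a stress-induced inhibitor of mTORC1, 1.97-fold (0.98 ± 0.13, adjusted p = 1.2e-05). Aldh18a1, the entry enzyme of proline synthesis, rose (1.11 ± 0.37, adjusted p = 0.027), while the endoplasmic reticulum chaperone Hsp90b1 (-0.62 ± 0.11, adjusted p = 2.7e-04) and its co-resident Sdf2l1 (-1.08 ± 0.30, adjusted p = 0.0099) fell. Gdf15, Igfals, Chac1, Aldh18a1, Hsp90b1 and Sdf2l1 missed the threshold without chow replicate 1 or 2 (adjusted p from 0.075 to 0.46). Igfals missed the threshold without chow replicate 3 (adjusted p = 0.052). Gdf15 and Igfals also missed it without LKO replicate 1, 2 or 3 and Aldh18a1 without LKO replicate 1 or 3 (adjusted p from 0.059 to 0.15 where missed). Gdf15, Igfals, Aldh18a1 and Sdf2l1 missed it with the quasi-likelihood test (adjusted p from 0.12 to 0.23). Gdf15, Igfals, Chac1, Aldh18a1 and Sdf2l1 were not called without sample quality weights. Gdf15, Igfals, Aldh18a1 and Sdf2l1 lost the call with no filter on low counts, with the exact test of edgeR or with DESeq2. Gdf15 lost the call with the replicate block or with scaling to library size alone. Asns ranged from -4.81 to -3.83 and Chac1 from 1.72 to 2.75 on the log2 scale over the alternatives.

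Circadian clock genes were called in both directions. In the liver clock, Arntl (BMAL1) with Clock or Npas2 drives the Per, Cry and Nr1d1 genes and outputs such as Dbp, whose products feed back on it. Of 19 clock genes, 9 were called higher and 5 lower, beside 13% and 14.9% of all genes (median 1.09), and the counts were 4 and 3 without chow replicate 1 and 4 and 3 without chow replicate 2. Dbp, a clock output factor (GRCm38 chromosome 7, 45705088 to 45710155, plus strand), was at 0.620, 1.25 and 5.13 CPM in chow and 11.4, 15.5, 42.8, 53.9 and 62.1 CPM in LKO libraries (25.5-fold, 4.67 ± 1.17, adjusted p = 0.0048). Arntl was at 37.4, 37.4 and 27.6 CPM and 13.4, 13.7, 5.78, 5.03 and 3.87 CPM (-2.32 ± 0.33, adjusted p = 1.9e-05). In Dbp, LKO replicates 1 and 2 were the lowest of the LKO libraries, and in Arntl they were the highest. The same order held for Ciart, a repressor of the clock, at 0.165, 0.445 and 0.276 CPM in chow and 1.25, 1.20, 6.38, 9.01 and 11.5 CPM in LKO libraries (3.72 ± 1.38, adjusted p = 0.046). It held too for Per3, at 3.47, 1.87 and 3.75 CPM and 5.63, 7.82, 16.6, 29.6 and 30.4 CPM (2.47 ± 0.77, adjusted p = 0.019). In Npas2, the partner of Arntl, LKO replicates 1 and 2 were again the highest of their group (-2.18 ± 0.43, adjusted p = 6.8e-04). Nfil3, a repressor that opposes Dbp, fell 2.70-fold (-1.43 ± 0.21, adjusted p = 3.7e-05). Per2 rose 2.82-fold (1.49 ± 0.28, adjusted p = 4.8e-04) and Nr1d1, which encodes the repressor REV-ERBα, 2.69-fold (1.43 ± 0.29, adjusted p = 7.8e-04). Nr1d1 ran from 28.2 to 134 CPM in chow and from 77.2 to 163 CPM in LKO libraries, and chow replicate 3 lay within the LKO range. The hour of tissue collection is not given in the sources used here, and its part in these differences was not tested. The letters CACGTG, the E-box bound by BMAL1 and CLOCK, were found in the 250 bases before the start of 4 of 16 clock genes with an entry (Per1, Cry1, Ciart and Tef), against 8.38% of kept genes, 3 of 17 sterol genes, 2 of 15 de novo lipogenesis genes and 1 of 20 lipid droplet genes. Dbp, Ciart, Per3 and Nr1d1 missed the threshold without chow replicate 1 or 2 (adjusted p from 0.095 to 0.34). Ciart missed the threshold without chow replicate 3 or LKO replicate 3, 4 or 5 (adjusted p from 0.053 to 0.066). Nr1d1 missed it with the quasi-likelihood test (adjusted p = 0.11). Ciart and Per3 were not called without sample quality weights or with no filter on low counts. Nr1d1 lost the call with the exact test of edgeR or with DESeq2. Ciart lost the call with only the groups compared. Dbp ranged from 3.49 to 5.09, Ciart from 3.43 to 4.32 and Nr1d1 from 0.59 to 1.73 on the log2 scale over the alternatives.

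**Figure D4:**
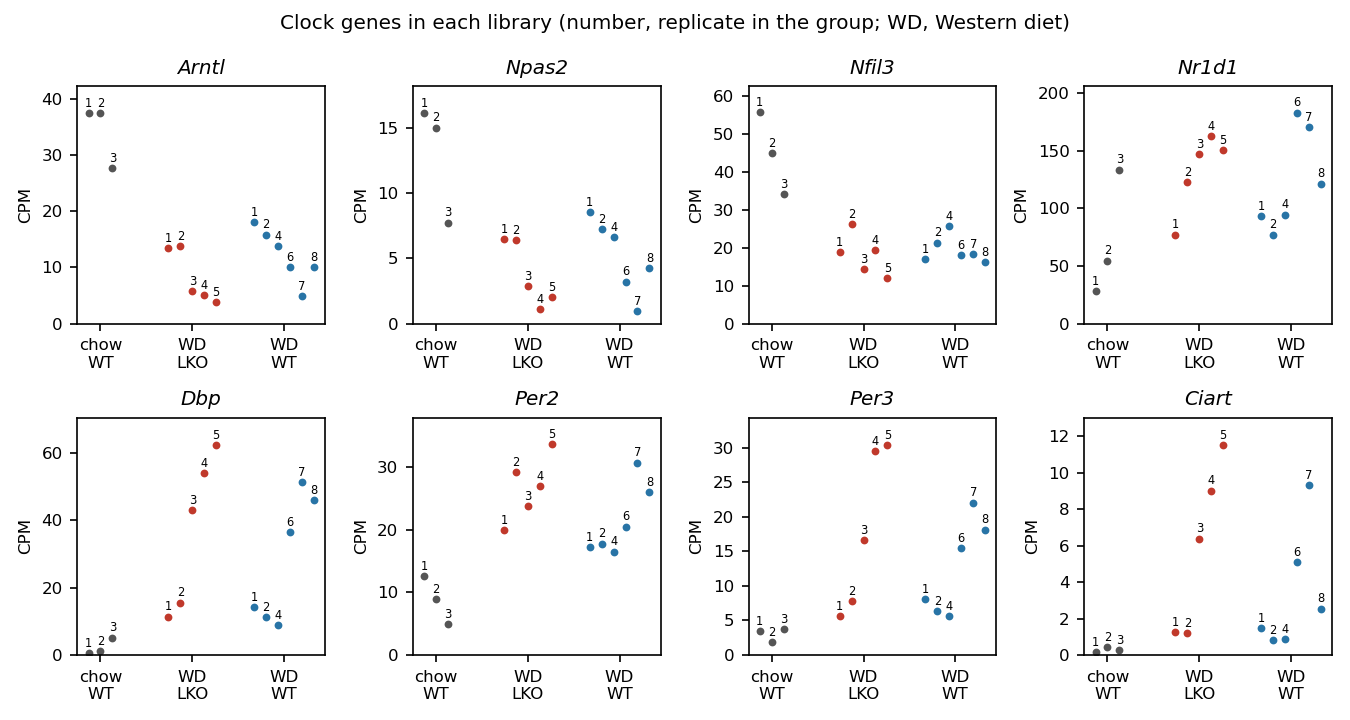
CPM of 8 clock genes in each library of chow WT, Western diet (WD) LKO and Western diet WT mice, on linear axes from 0. Each point is 1 library and the number beside it is its replicate number in the group, which does not join mice across groups. In the LKO libraries Arntl and Npas2 lie below and Dbp, Per3 and Ciart above the chow libraries, and LKO replicates 3, 4 and 5 lie further from chow than LKO replicates 1 and 2 in these genes.

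Genes with a sex bias in the liver were measured in males only. Of 19 male-biased genes, 12 were called lower and 0 higher, beside 14.9% and 13% of all genes (median -1.34), but 3 were called lower without chow replicate 1 and 3 without chow replicate 2. Serpina1e, a member of the alpha-1-antitrypsin family (GRCm38 chromosome 12, 103946931 to 103958975, minus strand), was at 12444, 10314 and 13115 CPM in chow and 67.0, 193, 46.5, 134 and 156 CPM in LKO libraries (107-fold lower, -6.75 ± 0.85, adjusted p = 4.4e-06). It was the largest fall among the genes taken by the naming rule. Selenbp2, a selenium-binding protein, was at 1009, 863 and 179 CPM and 52.8, 44.7, 20.9, 23.04 and 41.6 CPM (-4.48 ± 0.70, adjusted p = 6.0e-05). In Selenbp2, chow replicate 3 lay between the other chow libraries and the LKO libraries. Mup1, a major urinary protein, was at 22.3, 25.95 and 1.46 CPM in chow and 1.05, 1.504, 0.860, 3.40 and 3.46 CPM in LKO libraries (-3.41 ± 1.19, adjusted p = 0.036). Mup7, named after its values were seen, was at 1809, 1471 and 22.96 CPM and 32.7, 88.1, 57.7, 80.2 and 169 CPM and did not pass the test (-3.67 ± 1.52, adjusted p = 0.073). Chow replicate 3 lay within the LKO range in Mup1 and below every LKO library in Mup7. Serpina1 and Mup genes are families of near-identical copies, so reads that match several were not counted and the values of single members are uncertain. Mup1 missed the threshold without chow replicate 1 or 2 or LKO replicate 1, 2, 3, 4 or 5 (adjusted p from 0.051 to 0.53). Mup1 missed it with the quasi-likelihood test (adjusted p = 0.13). Mup1 was not called without sample quality weights, with no filter on low counts, with the exact test of edgeR or with DESeq2. Selenbp2 ranged from -4.79 to -3.54 and Mup1 from -3.91 to -1.80 on the log2 scale over the alternatives.

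Of 20 female-biased genes, 15 were kept, 5 were called higher and 3 lower, beside 13% and 14.9% of all genes. The rises numbered 0 without chow replicate 1 and 0 without chow replicate 2, and the falls 3 and 3. Hao2, a peroxisomal hydroxyacid oxidase, had 0 to 4 reads in chow libraries and 8 to 48 in LKO libraries, a ratio of 17.9 with a 95% exact interval for counting error of 6.81 to 66.6 (adjusted p = 0.0017). Sult1e1, the estrogen sulfotransferase, was at 0, 0 and 0.237 CPM and 1.37, 0.1003, 1.78, 0.0773 and 0.326 CPM (3.99 ± 1.48, adjusted p = 0.046), with overlapping libraries. Cyp2b9, named after its values were seen, was at 0.579, 0.801 and 0.473 CPM in chow and 38.8, 16.8, 142, 107 and 46.8 CPM in LKO libraries, without overlap, and did not pass the limma test (adjusted p = 0.066), while the quasi-likelihood test gave an adjusted p of 0.0051. The 3 members that fell were all Cyp3a genes. Cyp3a44 was at 16.7, 20.03 and 18.1 CPM and 1.53, 2.91, 1.84, 2.44 and 2.57 CPM (-3.07 ± 0.27, adjusted p = 1.5e-08), Cyp3a16 fell 7.06-fold (-2.82 ± 0.24, adjusted p = 8.2e-09) and Cyp3a41a 6.33-fold (-2.66 ± 0.26, adjusted p = 8.4e-08). Hao2 and Sult1e1 missed the threshold without chow replicate 1 or 2 (adjusted p from 0.16 to 0.51). Sult1e1 missed the threshold without LKO replicate 1 or 3 (adjusted p from 0.081 to 0.12). Sult1e1 missed it with the quasi-likelihood test (adjusted p = 0.095). Sult1e1 was not called without sample quality weights, with the exact test of edgeR or with only the groups compared. Hao2 ranged from 3.70 to 5.33 and Sult1e1 from 2.54 to 4.53 on the log2 scale over the alternatives.

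Of 35 cytochrome P450 and conjugation genes of xenobiotic metabolism, 16 were called lower and 3 higher, beside 14.9% and 13% of all genes (median -0.53). The falls numbered 8 without chow replicate 1 and 7 without chow replicate 2. Cyp3a11, the main drug-metabolising P450 of mouse liver and a PXR target (GRCm38 chromosome 5, 145854426 to 145879964, minus strand), was at 8672, 9149 and 9774 CPM in chow and 923, 1249, 1153, 1199 and 1105 CPM in LKO libraries (7.98-fold lower, -2.996 ± 0.21, adjusted p = 4.1e-10). Cyp2b10, the classical CAR target, was at 11.5, 16.4 and 13.02 CPM and 0.885, 0.902, 1.13, 1.93 and 0.774 CPM (12.97-fold lower, -3.70 ± 0.43, adjusted p = 1.2e-06). Neither gene had overlapping groups, and the LKO libraries spread more in Cyp2b10 than in Cyp3a11. Cyp2c55 fell 5.02-fold (-2.33 ± 0.27, adjusted p = 1.3e-06), whereas Cyp2c38 (1.62 ± 0.39, adjusted p = 0.0039) and the glutathione transferases Gstm2 (0.96 ± 0.24, adjusted p = 0.0056) and Gstt1 (0.44 ± 0.12, adjusted p = 0.009) rose. Cyp2b, Cyp2c and Cyp3a genes are close copies within their families, with the same limit on single members. Of 16 NRF2 antioxidant genes, 4 rose and 1 fell, beside 13% and 14.9% of all genes, or 0 and 0 without chow replicate 2 and 2 and 0 without chow replicate 1, and 7 and 1 with only the groups compared. Nqo1, a quinone reductase, rose 1.83-fold (0.87 ± 0.28, adjusted p = 0.024), ferritin heavy chain Fth1 1.59-fold (0.67 ± 0.13, adjusted p = 6.0e-04) and the transaldolase Taldo1 1.38-fold (0.47 ± 0.10, adjusted p = 0.0018), and Gclm, a subunit of the glutathione-synthesis enzyme, fell by 0.30 on the log2 scale (adjusted p = 0.014). Gstm2, Nqo1, Fth1 and Gclm missed the threshold without chow replicate 1 (adjusted p from 0.11 to 0.31). Gstm2, Gstt1, Nqo1, Fth1, Taldo1 and Gclm missed the threshold without chow replicate 2 (adjusted p from 0.066 to 0.41). Nqo1 missed the threshold without LKO replicate 2 or 3 (adjusted p from 0.051 to 0.076). Gstm2, Gstt1, Nqo1, Fth1 and Gclm missed it with the quasi-likelihood test (adjusted p from 0.078 to 0.16). Gstm2, Gstt1, Nqo1, Fth1 and Gclm were not called without sample quality weights or with the exact test of edgeR. Gstm2, Nqo1 and Gclm lost the call with no filter on low counts. Gstt1, Nqo1 and Gclm lost the call with DESeq2.

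Of 25 genes of the urea cycle and amino acid catabolism, 13 were called lower and 1 higher, beside 14.9% and 13% of all genes (median -0.45), and the falls numbered 9 and 10 without chow replicates 1 and 2 in turn. Cps1, the entry enzyme of the urea cycle, fell from 5917, 6518 and 7102 CPM to 1658, 2642, 2251, 3384 and 2738 CPM (2.57-fold lower, -1.36 ± 0.25, adjusted p = 3.4e-04). Cth, which makes cysteine from cystathionine, was at 600.4, 597 and 1028 CPM in chow and 117, 164, 152, 239 and 159.7 CPM in LKO libraries (3.97-fold lower, -1.99 ± 0.23, adjusted p = 1.1e-06). No LKO library reached a chow library in either gene. Hal, the histidine ammonia-lyase, fell 2.49-fold (-1.31 ± 0.23, adjusted p = 2.0e-04), Ass1, the argininosuccinate synthase, 2.04-fold (-1.03 ± 0.19, adjusted p = 3.2e-04), and Tat, the tyrosine aminotransferase, 1.80-fold (-0.85 ± 0.22, adjusted p = 0.0052). Gpt2, the mitochondrial alanine aminotransferase, was the member that rose (0.43 ± 0.12, adjusted p = 0.011). Tat missed the threshold without chow replicate 1 or 2 (adjusted p from 0.092 to 0.097).

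Acute phase and complement genes were called in both directions. Of 32 members, 7 were called higher and 9 lower, beside 13% and 14.9% of all genes (median 0.14), and the counts were 3 and 8 without chow replicate 1 and 2 and 3 without chow replicate 2. Lcn2, an iron-siderophore binding protein, was at 1.82, 2.85 and 4.34 CPM in chow and 98.5, 44.8, 69.1, 18.2 and 17.3 CPM in LKO libraries (16.1-fold, 4.01 ± 1.14, adjusted p = 0.011). Saa2, a serum amyloid A, was at 4.84, 6.32 and 10.97 CPM and 104, 42.0, 77.4, 16.5 and 34.5 CPM (7.65-fold, 2.93 ± 0.72, adjusted p = 0.0042). In both, LKO replicates 1 and 3 were the highest and LKO replicate 4 was among the lowest, still above every chow library. Orm3, an orosomucoid, rose 5.71-fold (2.51 ± 0.54, adjusted p = 0.0016). Itih3, an inter-alpha-trypsin inhibitor chain, fell 2.24-fold (-1.16 ± 0.14, adjusted p = 3.3e-06), and the complement components C8a and C3 fell 2.12-fold (-1.09 ± 0.16, adjusted p = 4.4e-05) and 1.87-fold (-0.90 ± 0.17, adjusted p = 4.6e-04). Saa and Orm genes are also close copies within their families. Lcn2 and Saa2 missed the threshold without chow replicate 1 (adjusted p from 0.11 to 0.16). Lcn2, Saa2 and Orm3 missed the threshold without chow replicate 2 (adjusted p from 0.06 to 0.19). Lcn2 and Saa2 were not called without sample quality weights. Lcn2 lost the call with no filter on low counts.

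The tissue label was checked against defining markers. Alb, serum albumin, held 43907 to 52626 CPM in chow and 33532 to 54138 CPM in LKO libraries and was not called (-0.14 ± 0.15, adjusted p = 0.5), Apoa1, apolipoprotein A-I, had an adjusted p of 0.74, and Ttr, transthyretin, rose by a small amount (0.32 ± 0.12, adjusted p = 0.049). Ttr missed the threshold without chow replicate 1 or 2 or LKO replicate 1, 2, 3, 4 or 5 (adjusted p from 0.058 to 0.45). Ttr missed it with the quasi-likelihood test (adjusted p = 0.34). Ttr was not called without sample quality weights, with no filter on low counts, with the exact test of edgeR, with DESeq2, with the replicate block or with upper-quartile scaling. Of 13 hepatocyte markers, 5 were called lower, among them Cps1, Ass1 and Tat from the urea cycle and amino acid list, and 1 higher, beside 14.9% and 13% of all genes, and their summed level ran from 83588 to 96960 CPM in chow and from 65455 to 91836 CPM in LKO libraries. The falls numbered 2 without chow replicate 1 and 2 without chow replicate 2. The fat marker Adipoq was at 0 to 3 reads in chow and 0 in LKO libraries and the pancreas marker Prss2 at 0 in all 8, while Cela1, an elastase of the pancreas, was at 14.95 to 34.7 CPM in chow and 6.52 to 17.7 CPM in LKO libraries. In whole liver, a change in the number of cells of a type and a change in RNA per cell cannot be told apart.

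Markers of resident macrophages were higher in part, and few of recruited macrophages were called. Of 15 Kupffer cell markers, 7 were called higher and 0 lower, beside 13% and 14.9% of all genes (median 0.36), and their summed level ran from 448 to 580.2 CPM in chow and from 601 to 790 CPM in LKO libraries. Without chow replicates 1 and 2 in turn, and with the quasi-likelihood test, the count was 1 each time. Folr2, a folate receptor of resident macrophages, was at 7.86, 7.21 and 5.52 CPM in chow and 13.04, 15.4, 13.2, 10.9 and 12.3 CPM in LKO libraries (0.86 ± 0.18, adjusted p = 0.0013). Cd68 (0.999 ± 0.28, adjusted p = 0.0096), Cd5l (0.96 ± 0.22, adjusted p = 0.0028) and the defining marker Clec4f (0.36 ± 0.13, adjusted p = 0.04) also rose, and the other defining marker, Vsig4, was not called (0.31 ± 0.24, adjusted p = 0.35). Of 20 markers of recruited and lipid-associated macrophages, 4 were called higher and 0 lower, beside 13% and 14.9% of all genes (median 1.34). All 20 had a log2 fold change above 0, and 7 had every LKO library above every chow library, against 11.2% of all genes. With the replicate block 13 were called higher, and 0 were called without chow replicate 1 and 0 without chow replicate 2. The called members were Clec7a, a glucan receptor (1.77 ± 0.58, adjusted p = 0.025), the lectin Lgals3 (1.53 ± 0.54, adjusted p = 0.036), the secreted phosphoprotein Spp1 (1.13 ± 0.35, adjusted p = 0.018) and the protease Ctss (0.69 ± 0.24, adjusted p = 0.035). Trem2, a lipid receptor that defines these cells, was at 0.579, 0.445 and 0.473 CPM in chow and 3.82, 2.41, 2.31, 0.928 and 1.83 CPM in LKO libraries, without overlap, and was not called (2.04 ± 0.96, adjusted p = 0.11). Itgax (CD11c) was at 0.496, 0.979 and 1.499 CPM and 7.85, 3.21, 5.01, 1.31 and 2.32 CPM (2.08 ± 0.98, adjusted p = 0.11). LKO replicate 1 held the highest value of both and LKO replicate 4 the lowest. Cd68, Cd5l, Clec4f, Clec7a, Lgals3, Spp1 and Ctss missed the threshold without chow replicate 1 or 2 (adjusted p from 0.096 to 0.44). Clec4f also missed it without LKO replicate 1, 2, 3 or 5, Clec7a without LKO replicate 3, Lgals3 and Ctss without LKO replicate 1, 2 or 3 and Spp1 without LKO replicate 1 or 3 (adjusted p from 0.051 to 0.086 where missed). Cd68, Cd5l, Clec4f, Clec7a, Lgals3, Spp1 and Ctss missed it with the quasi-likelihood test (adjusted p from 0.062 to 0.3). Cd68, Cd5l, Clec4f, Clec7a, Lgals3, Spp1 and Ctss were not called without sample quality weights or with no filter on low counts. Cd68, Cd5l, Clec4f, Lgals3 and Ctss lost the call with the exact test of edgeR. Cd68, Cd5l, Clec4f and Ctss lost the call with DESeq2. Clec4f lost the call with the replicate block. Lgals3 and Ctss lost the call with scaling to library size alone.

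The number of calls in other immune lists depended on the groups and libraries fitted. Of 17 kept markers of T, NK and B cells and neutrophils, 2 rose and 1 fell, beside 13% and 14.9% of all genes, and their summed level ran from 24.1 to 37.5 CPM in chow and from 43.4 to 164 CPM in LKO libraries. The sum without Ighm ran from 18.1 to 27.5 CPM in chow and from 15.1 to 24.9 CPM in LKO libraries. Ighm, the immunoglobulin M constant region, was at 13.2, 5.97 and 4.97 CPM and 48.8, 141, 30.1, 28.3 and 91.2 CPM (2.90 ± 0.65, adjusted p = 0.002). The list held 1 rise without chow replicate 1 and 0 without chow replicate 2. Nkg7, a cytotoxic granule protein, rose (3.37 ± 0.87, adjusted p = 0.006) and Cd4 fell (-1.76 ± 0.39, adjusted p = 0.0018), while the defining markers Cd3e, Cd79a and S100a8 had adjusted p-values of 0.55, 0.7 and 0.75. Rises were called for 2 of 10 MHC class II presentation genes, 2 of 21 interferon response genes and 6 of 24 chemokine and NF-kB genes, beside 13% of all genes, and without chow replicate 1 or 2 none of these rises was called. With only the groups compared in the fit, the rises numbered 6, 11 and 11. Examples were Cd83 (1.51 ± 0.49, adjusted p = 0.024), Cxcl9 (1.25 ± 0.45, adjusted p = 0.042), Bst2 (0.48 ± 0.17, adjusted p = 0.032), Ccl6 (1.28 ± 0.40, adjusted p = 0.02) and Relb (1.20 ± 0.33, adjusted p = 0.01). Cxcl2, a neutrophil attractant, had 0 to 2 reads in chow libraries and 4 to 21 in LKO libraries, a ratio of 15.9 with a counting interval of 4.21 to 135 (adjusted p = 0.038). Cxcl13, a B cell attractant, was the chemokine that fell, from 7.53, 2.94 and 2.60 CPM to 0.563, 0.802, 1.13, 1.01 and 0.407 CPM (-2.38 ± 0.37, adjusted p = 5.7e-05). Nkg7, Cd4, Cd83, Cxcl9, Bst2, Ccl6, Relb and Cxcl2 missed the threshold without chow replicate 1 (adjusted p from 0.16 to 0.47). Ighm, Nkg7, Cd4, Cd83, Cxcl9, Bst2, Ccl6, Relb and Cxcl2 missed the threshold without chow replicate 2 (adjusted p from 0.07 to 0.53). Cd83 and Ccl6 also missed it without LKO replicate 3, Cxcl9 and Cxcl2 without LKO replicate 1, 2 or 3 and Bst2 without LKO replicate 1 or 5 (adjusted p from 0.052 to 0.086 where missed). Nkg7, Cd83, Cxcl9, Bst2, Ccl6, Relb and Cxcl2 missed it with the quasi-likelihood test (adjusted p from 0.061 to 0.32). Nkg7, Cd83, Cxcl9, Bst2, Ccl6, Relb and Cxcl2 were not called without sample quality weights. Cd83, Cxcl9, Bst2, Ccl6 and Relb lost the call with no filter on low counts. Nkg7, Cd83, Cxcl9 and Bst2 lost the call with the exact test of edgeR. Nkg7, Cxcl9 and Bst2 lost the call with DESeq2. Bst2 lost the call with the replicate block. Cxcl9 and Bst2 lost the call with scaling to library size alone. Nkg7 ranged from 1.45 to 4.03 and Cxcl2 from 3.11 to 4.25 on the log2 scale over the alternatives.

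Stellate cell, matrix and cell cycle lists had medians above 0, and their calls rested on the chow libraries. Of 35 stellate cell and matrix genes, 15 were called higher and 0 lower, beside 13% and 14.9% of all genes (median 0.62), but 3 were called without chow replicate 1, 3 without chow replicate 2 and 4 with the quasi-likelihood test, and 21 with only the groups compared in the fit. Col1a1, the main fibrillar collagen chain, was at 3.76, 4.72 and 3.94 CPM in chow and 34.9, 18.7, 27.5, 8.43 and 15.8 CPM in LKO libraries (4.62-fold, 2.21 ± 0.73, adjusted p = 0.027). Col5a3, another collagen chain, was at 14.4, 3.92 and 7.81 CPM and 22.9, 26.8, 15.9, 17.5 and 16.6 CPM (1.47 ± 0.43, adjusted p = 0.015). The lowest Col1a1 value of the LKO group belonged to LKO replicate 4 and the highest to LKO replicate 1. Of 20 cell cycle genes, 10 were called higher and 0 lower, beside 13% and 14.9% of all genes (median 1.61), and 0 were called without chow replicate 1, 0 without chow replicate 2 and 0 with the quasi-likelihood test, and 16 with only the groups compared. Top2a, the replication-linked topoisomerase, was at 1.03, 0.757 and 2.05 CPM in chow and 7.65, 3.21, 4.42, 3.13 and 3.01 CPM in LKO libraries (2.01 ± 0.71, adjusted p = 0.037), and the mitotic kinases Aurkb (2.34 ± 0.79, adjusted p = 0.03) and Bub1 (2.66 ± 0.95, adjusted p = 0.039) rose from fewer reads. Of 11 sinusoidal endothelial markers, 3 were called higher and 1 lower, beside 13% and 14.9% of all genes. The rises were the hyaluronan receptor Lyve1 (1.65 ± 0.29, adjusted p = 2.3e-04), Pecam1 (0.33 ± 0.12, adjusted p = 0.041) and Oit3 (0.31 ± 0.10, adjusted p = 0.027), and the VEGF receptor Kdr fell slightly (-0.28 ± 0.07, adjusted p = 0.0047). The list held 1 rise without chow replicate 1 and 1 without chow replicate 2. The defining marker Stab2 was at 93.7 to 97.4 CPM in chow and 102 to 116 CPM in LKO libraries (adjusted p = 0.076). Of 7 kept cholangiocyte markers, 1 was called higher and 2 lower, beside 13% and 14.9% of all genes. The adhesion protein Cdh1, also made by hepatocytes, fell from 67.4, 71.7 and 73.8 CPM to 12.8, 17.7, 18.03, 6.84 and 10.2 CPM (-2.41 ± 0.28, adjusted p = 1.2e-06), Sox9 fell (-1.50 ± 0.35, adjusted p = 0.0032) and Muc1 rose (1.89 ± 0.42, adjusted p = 0.002). The defining markers Krt19 and Epcam stood at 0.579 to 2.56 and 1.16 to 1.58 CPM in chow and at 0.652 to 1.60 and 1.082 to 2.37 CPM in LKO libraries (adjusted p = 0.4 and 0.24). Among markers of other tissues, Hba-a1, a haemoglobin alpha gene with a near-identical copy, rose (0.91 ± 0.33, adjusted p = 0.043) and Cela1, an elastase, fell (-1.68 ± 0.31, adjusted p = 4.0e-04). The part of other cell types in the results above was not tested. Col1a1, Col5a3, Top2a, Aurkb, Bub1, Pecam1, Oit3, Sox9, Muc1, Hba-a1 and Cela1 missed the threshold without chow replicate 1 (adjusted p from 0.069 to 0.7). Col1a1, Col5a3, Top2a, Aurkb, Bub1, Pecam1, Oit3, Kdr, Muc1, Hba-a1 and Cela1 missed the threshold without chow replicate 2 (adjusted p from 0.075 to 0.54). Bub1 and Hba-a1 missed the threshold without chow replicate 3 (adjusted p from 0.052 to 0.068). Col1a1 and Top2a also missed it without LKO replicate 1 or 3, Aurkb without LKO replicate 1, Bub1, Pecam1 and Hba-a1 without LKO replicate 1, 2 or 3 and Oit3 without LKO replicate 2 or 4 (adjusted p from 0.052 to 0.16 where missed). Col1a1, Col5a3, Top2a, Aurkb, Bub1, Pecam1, Oit3 and Hba-a1 missed it with the quasi-likelihood test (adjusted p from 0.056 to 0.41). Col1a1, Col5a3, Top2a, Aurkb, Bub1, Pecam1, Oit3 and Hba-a1 were not called without sample quality weights. Col1a1, Top2a, Aurkb, Bub1, Pecam1, Oit3 and Hba-a1 lost the call with no filter on low counts. Col5a3, Top2a, Aurkb, Bub1, Pecam1, Oit3 and Hba-a1 lost the call with the exact test of edgeR. Top2a, Aurkb, Bub1, Pecam1, Oit3 and Hba-a1 lost the call with DESeq2. Aurkb, Pecam1, Oit3 and Hba-a1 lost the call with the replicate block. Bub1, Pecam1 and Oit3 lost the call with only the groups compared. Pecam1 lost the call with scaling to library size alone or with upper-quartile scaling. Col5a3 ranged from 0.88 to 1.78, Aurkb from 1.23 to 2.71, Bub1 from 1.24 to 3.09 and Muc1 from 1.22 to 2.06 on the log2 scale over the alternatives.

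To place the combined effect, the WT mice on Western diet are set beside it. They were compared with the same 3 chow libraries, so both comparisons share their controls and are not independent. In them 3101 genes were called against chow (22%), 1414 higher (10.1%) and 1687 lower (12.0%), or 1053 and 2175 with scaling to library size alone and 2040 and 1802 with the replicate block. The total was 952 without chow replicate 1, 843 without chow replicate 2 and 1322 with the quasi-likelihood test. In these WT mice the sterol synthesis list held 23 falls with a median of -1.70. The log2 fold change of Scd1 was 2.95 ± 0.21 in WT and 3.09 ± 0.22 in LKO mice, and that of Idi1 was -3.87 ± 0.21 and -4.01 ± 0.21. Cyp3a11 stood at -2.21 ± 0.21 in WT and -2.996 ± 0.21 in LKO mice, and Fgf21 at 3.41 ± 1.36 (adjusted p = 0.073) and 4.36 ± 1.33. The test of the difference itself, LKO against WT on Western diet, called 1 gene of 14065 (0.00711%), and at an unadjusted p under 0.05 it found 891 (6.33%). A difference that misses this threshold is not shown to be absent. Of the de novo lipogenesis genes, 11 were called higher in WT mice (median 1.16) beside 12 in LKO mice (median 1.21). For lipid droplet genes the counts were 17 (median 0.94) and 18 (median 1.15). Male-biased genes held 6 falls in WT (median -0.96) and 12 in LKO mice (median -1.34), and cell cycle genes 2 rises (median 1.05) and 10 (median 1.61). For the male-biased list the median difference between LKO and WT was -0.56, with 0 calls, as in the cell cycle list (0.29, 0 calls), and the adjusted p was 0.32 for Serpina1e (-2.50 ± 0.63) and 0.18 for Cyp3a11 (-0.79 ± 0.18).

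The 1 gene called was Mmp7, a matrix metalloproteinase expressed by injured bile duct epithelium (GRCm38 chromosome 9, 7692090 to 7699585, plus strand). It was at 1.17, 0.902, 1.57, 1.20 and 0.774 CPM in LKO replicates 1 to 5, at 0, 0 and 0.0789 CPM in chow libraries and at 0 to 0.151 CPM (median 0.0880) in WT mice on Western diet. Read counts ran from 18 to 53 in LKO libraries, 0 to 4 in WT Western diet libraries and 0 to 2 in chow libraries. Every one of these LKO libraries thus lay well above every chow library and every WT Western diet library with the empty vector. The ratio of LKO to WT on Western diet was 13.4, with a 95% exact interval for counting error of 7.45 to 26.5, and the limma difference was 3.46 ± 0.51 (adjusted p = 0.0067). Of all 25 libraries, only 3 of these LKO libraries were over 1 CPM. In SIRT1 LKO mice on Western diet given AAV8-NAMPT instead of the empty vector, 0 libraries were over 1 CPM. Mmp7 thus entered the test through the group in which it was high, and its p-value gives no support beyond these counts. Against chow the ratio was 41.9 (11.4 to 349), and the limma fold change was 5.47 ± 0.69 (adjusted p = 4.5e-06), or from 4.61 to 5.75 over the alternatives. Without WT replicate 2 the adjusted p of the difference between LKO and WT was 0.054. It was 0.077 with no filter on low counts, where the 1 gene called was another, and 0.47 with the replicate block, at a log2 difference of 2.55. With the quasi-likelihood test, which called 0 genes (498 or 3.54% at an unadjusted p under 0.05), it was 0.16. Mmp7 shares 11.5% of its exonic bases with AV064505 on the opposite strand. The level of Mmp7 was about 1 CPM, far below that of the metabolic genes described above.

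**Figure D5:**
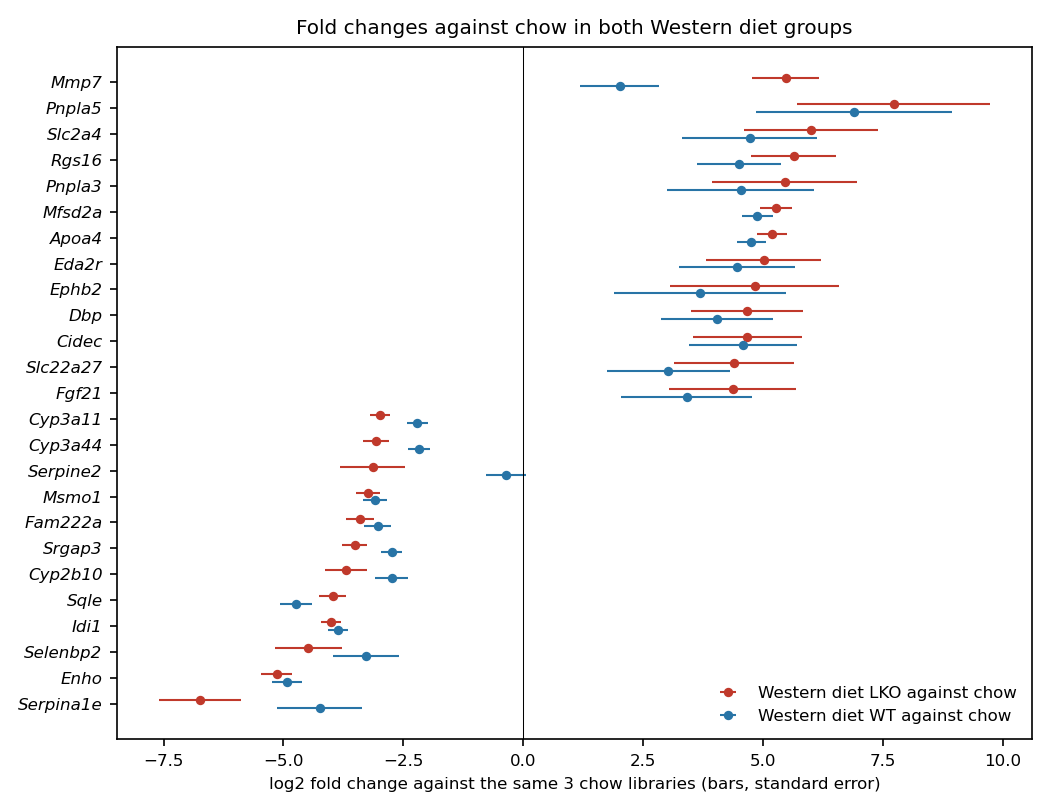
Log2 fold changes of the 24 genes with the largest called changes and of Mmp7, for Western diet LKO (red, n = 5) and Western diet WT (blue, n = 6) against the same 3 chow libraries. Bars are standard errors of the limma fit. Mmp7 stands at 5.47 in LKO and 2.01 in WT, a difference of 3.46.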

How the data were processed

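Liver poly-A RNA of each mouse had been sequenced as single 50-base reads, and the authors deposited 1 table per library. Per the submitters' processing notes, reads were aligned to GRCm38 with STAR 2.5.1a and the deposited counts are uniquely aligned, unambiguous reads per Ensembl gene from featureCounts 1.4.6-p5. The study's methods give other versions of both tools, and strand counting is not given in the sources used here. The deposited CPM values, which the authors scaled to the total of assigned reads, and the deposited RPKM values, which they also divided by gene length, were checked and not tested.

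Counts of all 25 libraries entered the fit. Genes above 1 CPM in at least 2 libraries were kept (14065), and 4 ribosomal RNA genes were left out. TMM factors (edgeR 4.0.16) and voom with sample quality weights (limma 3.58.1, R 4.3.3) gave moderated tests with 1 mean per group and no covariate, adjusted by Benjamini-Hochberg over all 14065 genes and called at 0.05. Sirt1, Nampt and Fgf21 were also tested by an exact permutation test on log2(CPM + 0.5) in scipy 1.17.1. Intervals of count ratios are exact at 95% and, like the floor of 3 counts, cover counting error only. Total counts of 20166175 to 32937326 per library over all 25, and of 20987960 to 32937326 over the 8 compared, set the precision. On simulated counts of 14065 genes, the fit for LKO against chow recovered 69% of 2-fold and 95% of 4-fold changes with 8 false calls. The simulation changed 100 genes per fold and gave no library extra spread. Its false calls therefore do not measure those among the real calls, which depended on sample weights and single chow libraries.

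The members, gene lists and tests were chosen with earlier results of these data known. Named genes are Sirt1, Nampt and Fgf21, the 12 largest called changes per direction with separated libraries, a symbol that is no Gm or Rik model and an average log2 CPM of at least 0, up to 3 called genes per direction and list, defining cell type markers, and up to 5 genes called between LKO and WT on Western diet. Hmgcs1, Cyp51, Mvd, Ebp, Sc5d, Srebf1, Fasn, Acaca, Elovl6, Plin2, Cd36, Abca1, Cyp7a1, Nr1d1, Per2, Mup7 and Cyp2b9 were added after their values were seen, and a few named genes are not reported here. Alternatives were the quasi-likelihood and exact tests of edgeR, DESeq2 1.42.0, no sample weights, other scaling, other filters, fewer groups, a replicate block and leaving out each library.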

Additional observations from a re-analysis of the deposited data

Results flagged for a closer look

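Of 162 named genes examined in the 5 LKO libraries, 7 had 1 library far from the others by Dixon's criterion, which chance meets in about 1 in 20 groups. Serpine2 was at 3.09 CPM in LKO replicate 4 against 1.25 to 1.65 CPM in the others, and Gclm at 212 CPM there against 178 to 185 CPM. Tat was at 1057 CPM in LKO replicate 2 against 633 to 723 CPM, and Cyp3a41a at 1.003 CPM there against 0.282 to 0.425 CPM. Hba-a1 was at 692 CPM in LKO replicate 3 against 283 to 393 CPM, and Stab2 at 116 CPM there against 102 to 106 CPM. Cyp3a16 was at 1.13 CPM in LKO replicate 1 against 1.69 to 1.83 CPM. No library was flagged in more than 2 genes.

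Mmp7 differed in its effect against chow between LKO and WT mice on Western diet, by 3.46 on the log2 scale in the limma test of that difference (adjusted p = 0.0067), and all 5 LKO libraries lay above all 6 WT libraries. It passed the filter on low counts through 3 LKO libraries with the empty vector alone, so its p-value gives no support beyond the read counts. The adjusted p was 0.16 with the quasi-likelihood test, 0.077 with no filter, 0.47 with the replicate block and 0.054 without WT replicate 2.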

How the results depend on the processing

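No named gene called in LKO against chow took the opposite sign in any alternative, and 63 of the 144 were called in all of them, while 44 were not called by the quasi-likelihood test and 29 moved by over 1.5 times in fold. The calls depended most on chow replicates 1 and 2 and on the sample quality weights, and the cause was not tested. Against 3917 calls (1827 higher and 2090 lower), the quasi-likelihood test gave 1529 (733 and 796), the exact test of edgeR 1650 (781 and 869), DESeq2 1938 (997 and 941), limma without weights 1399 (589 and 810) and no filter on low counts, with 29119 genes tested, 2249 (1050 and 1199). Leaving out 1 library gave 1074 to 3914 calls, 438 to 1882 higher and 636 to 2130 lower, with the lowest counts without chow replicate 2 (1074) and chow replicate 1 (1217). For WT against chow (3101 calls) the same 5 settings gave 1322, 1466, 1745, 1201 and 1971, and leaving out 1 library 843 to 3171. For LKO against WT on Western diet (1 call), the exact test gave 10, DESeq2 11, only the groups compared 5, the quasi-likelihood test 0 (498 at an unadjusted p under 0.05) and a filter on mean CPM 0 (813 at an unadjusted p under 0.05), which left Mmp7 out. With no filter the 1 call was not Mmp7. Without 1 library it gave 0 to 5, with 0 without WT replicate 2 and 5 without WT replicate 1.

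Replicate numbers did not pair the mice: deviations of LKO and chow libraries with the same number correlated at -0.068, 0.057 and 0.119, and those of LKO and WT libraries on Western diet (numbers 1, 2 and 4) at 0.419, 0.194 and -0.377. With the replicate block, 3070 genes (1582 higher and 1488 lower) were called in LKO against chow, 3842 (2040 higher and 1802 lower) in WT against chow and 2 in LKO against WT, without Mmp7 (adjusted p = 0.47).

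Uncalled genes near 0 changed sign. Apoa1 was at -0.020 with the replicate block and from -0.069 to 0.16 without 1 library. Krt19 was at -0.19 with both edgeR tests and DESeq2, -0.035 without weights and from -0.51 to 0.61 without 1 library. S100a8 was at -0.31 with the quasi-likelihood test and DESeq2, -0.32 with the exact test, -0.037 without weights and from -0.72 to 0.48 without 1 library.

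With 3 chow libraries, genes of few reads such as Mmp7, Hao2 and Cxcl2 have wide counting intervals, and an exact test of 1 gene cannot go below p = 0.0357.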
